A study of Mus musculus with 5 samples.

Results

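RNA of B16F10 cells, a pigmented mouse skin melanoma line, was compared between the library labelled HIF-1α overexpression and the library of conventional three-dimensional (3D) culture. The members of the comparison are these 2 of the 5 libraries of the series, taken by their sample titles, with every gene of the deposited table. Of 54100 genes, 12719 reached a mean CPM (counts per 1000000, after scaling by TMM factors, which correct for library composition) of 1 over the 2 libraries and are called measured here. The conventional 3D cells are labelled wild type and untreated. The other cells are labelled overexpression and untreated, and neither the construct, its promoter nor the number of clones is given in the sources used here. Both groups share 1 growth protocol in the labels, in which cells were kept in suspension without serum on a shaker at 60 to 80 rpm over 7 to 10 days, so apart from the genotype only the title tells how the cultures differed. Each library pooled 3 repeats, and no empty-vector control is among the 2 compared, so the construct, the culture and the handling of the cells cannot be told apart. The other 3 libraries, dynamic suspension culture and shControl, both of wild-type genotype by label, and a library labelled knockdown, are set beside the pair as context.

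HIF-1 is a pair of proteins, the oxygen-regulated HIF-1α and its constant partner ARNT. With oxygen present, prolyl hydroxylases of the EGLN family mark HIF-1α, the VHL ubiquitin ligase binds it and the proteasome removes it. When oxygen is low HIF-1α escapes this removal and switches on genes of glucose uptake, glycolysis, vessel growth and mitochondrial turnover. Because the control acts mainly on the protein, the amount of Hif1a RNA is a check of a construct and not a measure of HIF activity.

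The Hif1a RNA level went against the label in this pair. Hif1a (ENSMUSG00000021109, GRCm38 chromosome 12, 73901375 to 73947530, plus strand) stood at 384 CPM in the library labelled overexpression and at 542 CPM in conventional 3D culture, 1.41-fold lower under the overexpression label (95% counting interval 1.37 to 1.45, log2 ratio -0.49). Conventional 3D culture had the most Hif1a RNA of the 5 libraries, the library labelled overexpression lay beside dynamic suspension at 390.5 CPM, and shControl at 61.3 and the library labelled knockdown at 95.1 were low. The values do not tell construct from native RNA. The name "library labelled overexpression" is therefore kept throughout, and no direction below can be read as an effect of more Hif1a RNA than in conventional 3D culture.

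The values of the 2 libraries are of different kinds. The deposited column of conventional 3D culture holds estimated counts that sum to 61267892, and low values pile up at multiples of 4. Plain counts summing to 15393189 fill the column of the library labelled overexpression. The same division runs through the series, with estimated counts also for dynamic suspension and shControl, and plain counts for the library labelled knockdown. Fold changes carry 95% intervals that cover counting error only and may be too narrow for the estimated counts. With 1 library a group there is no replicate check, no test and no p-value. In such bulk RNA, fewer cells of a type and less RNA per cell cannot be told apart.

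The library labelled overexpression had 915 of all measured genes (7.19%) on the higher side and 1372 (10.8%) on the lower side of a 2-fold threshold, and the median log2 ratio was -0.02. "Beyond 2-fold", or higher and lower in a count of genes, means a log2 ratio of at least 1 in size, from scaled CPM with a prior count of 2, and an interval that excludes no difference. Scaling by total counts moved the median of all genes up to 0.32 and turned the split from 40.0% to 64.1% higher among the genes past the threshold. Many lower genes share their sequence with others. Among protein-coding genes, those with under 20% of their 50-base stretches to themselves had a median log2 ratio of -3.01, and 113 of 148 were lower. The median was -1.33 between 20 and 50%, -0.23 between 50 and 90%, -0.01 between 90 and 99%, and 0.08 above 99%. Processed pseudogenes, copies of spliced transcripts set back into the genome, had a median of -1.32 with 384 of 665 lower. Plain and estimated counts can treat such reads differently, and this cannot be told apart from the groups.

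**Figure D1:**
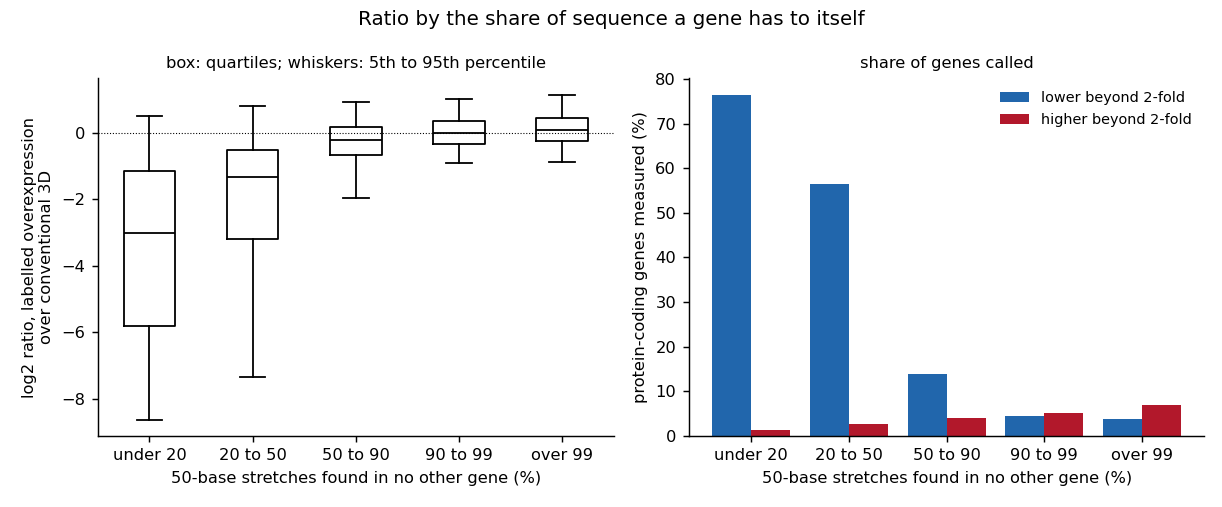
Log2 ratio of scaled CPM (left, boxes are quartiles and whiskers the 5th to 95th percentile) and percent of genes beyond 2-fold (right) for measured protein-coding genes, by the percent of 50-base stretches found in no other gene. The median climbs from -3.01 in the class under 20% to 0.08 in the class above 99%.

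Many counts below are therefore also given over the 9031 measured protein-coding genes of own sequence, meaning that at least 90% of the stretches are found in no other gene and at most 10% of exon bases overlap another gene's exons. In this set 567 genes (6.28%) were higher, 349 (3.86%) were lower, 89.9% lay within 2-fold and the median was 0.06. A gene is called split by column kind where both plain columns lie on one side of all 3 estimated ones. Such genes made up 18.3% of the own-sequence set, 37.4% of its higher genes (212) and 36.4% of its lower genes (127). Among own-sequence genes that were not split, 4.81% were higher and 3.01% lower. The library labelled overexpression was the highest of the 5 libraries for 335 of the 567 higher genes, while conventional 3D culture was the lowest for 233. Of the 349 lower genes, conventional 3D culture was the highest of the 5 for 178, and the library labelled overexpression the lowest for 108.

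**Figure D2:**
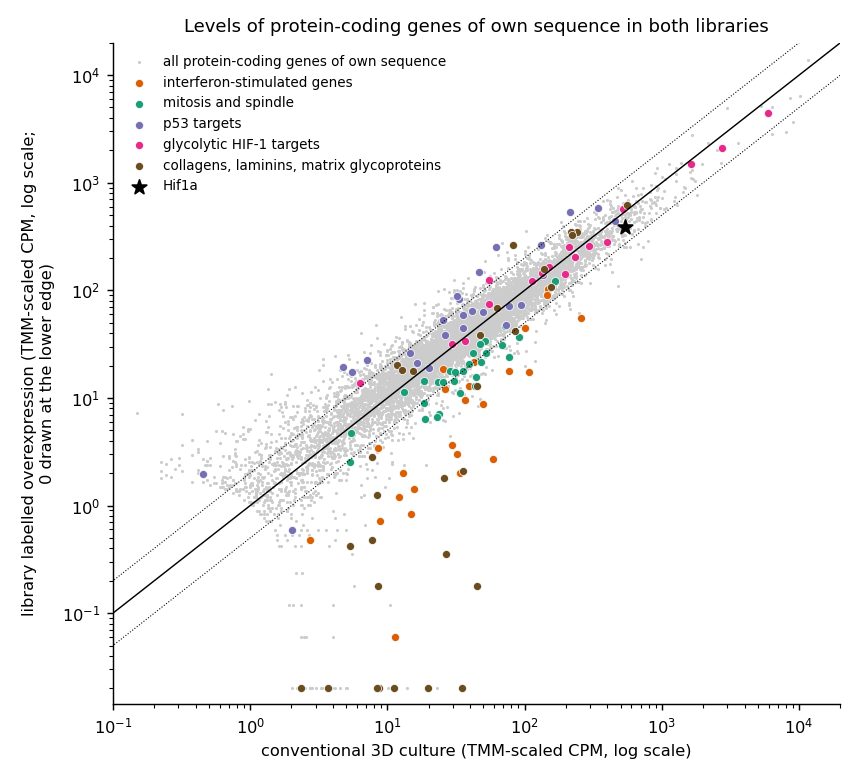
Scaled CPM in conventional 3D culture (x axis) and in the library labelled overexpression (y axis), both on log scales, for protein-coding genes of own sequence; the solid line marks equal levels and dotted lines mark 2-fold. Interferon-stimulated and mitosis genes lie below the line, most p53 targets above it, glycolytic HIF-1 targets along it, and Hif1a (384 against 542) just below it.

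The parts of the oxygen-sensing system stayed within 2-fold. Of 18 listed HIF subunits and sensors 16 were measured, 0 passed the threshold in either direction and the median log2 ratio was 0.21. Epas1, which encodes HIF-2α, the other oxygen-regulated subunit, was 30.7 CPM against 24.1 in conventional 3D culture (1.27-fold, interval 1.15 to 1.41), the highest of the 5 libraries. Arnt, the constant partner, was at 100.03 CPM against 69.2, and Egln1, the main prolyl hydroxylase, at 141 against 99.6. Egln3, a hydroxylase gene that HIF itself induces, was 11.6 against 10.0 CPM, and its log2 interval of -0.03 to 0.45 includes 0. Vhl was at 49.95 against 49.4 CPM, an interval of 0.94 to 1.09 for the ratio.

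Glycolytic HIF-1 targets were at similar levels in both libraries. All 24 listed genes were measured, 2 were higher, 0 were lower, and the median log2 ratio was 0.09, close to the 0.06 of own-sequence genes. The share higher was near the 7.19% of all measured genes, of which 10.8% were lower. The 2 higher genes were Eno2, the neuronal form of the glycolytic enzyme enolase, at 123 CPM against 55.3 (2.23-fold, 2.11 to 2.36), and Pfkfb4, which tunes the rate of glycolysis, at 13.6 against 6.31 CPM (2.16-fold, 1.82 to 2.56). Each of them was at its highest in the library labelled overexpression. For Eno2 the other libraries had 65.0 CPM in dynamic suspension, 21.9 in shControl and 11.1 in the library labelled knockdown. Slc2a1, the glucose transporter GLUT1, was 74.8 against 55.2 CPM, and Hk2, which traps glucose in the cell, 254 against 212. On the other side, Aldoa (aldolase) was 4424 against 5965 CPM and Ldha, which turns pyruvate into lactate, 1488 against 1636. For 19 of the 24 genes the level in the library labelled overexpression exceeded both shControl and the library labelled knockdown, and conventional 3D culture was exceeded by shControl in 1 gene and by the library labelled knockdown in 6. Aldoc, another aldolase, shows this order, at 143 and 134 CPM in the compared pair against 8.88 in shControl and 16.4 in the library labelled knockdown.

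Outside glycolysis, 28 of 33 hypoxia targets were measured, 4 were higher and 2 lower, with a median of 0.22. All measured genes had 7.19% higher and 10.8% lower, and the 22 own-sequence members of the list had 2 in each direction. Vegfa, the signal for vessel growth (chromosome 17, 46016993 to 46032369, minus strand), was at 130 CPM against 39.0, 3.33-fold higher (3.14 to 3.54). Conventional 3D culture had the lowest Vegfa of the series, since dynamic suspension stood at 132 CPM, shControl at 43.6 and the library labelled knockdown at 73.0. The library labelled overexpression and dynamic suspension were the high samples for Vegfa. Ddit4, an inhibitor of mTORC1 that hypoxia induces, was 133 against 61.6 CPM (2.17-fold, 2.05 to 2.29) and was split by column kind, with 30.3, 44.7 and 96.5 CPM in dynamic suspension, shControl and the library labelled knockdown. Fam162a and Higd1a, both mitochondrial proteins and both of shared sequence, were 2.32-fold and 2.16-fold higher. Hilpda, a lipid droplet protein, at 19.4 against 10.1 CPM, and Ero1l, an oxidase of protein folding, at 669 against 374, stayed under the threshold at log2 ratios of 0.94 and 0.84. Car9, a carbonic anhydrase often used as a hypoxia marker, was 26.5 against 24.8 CPM (interval of the ratio 0.96 to 1.19), and Bnip3, a mitophagy receptor of shared sequence, was 183 against 157.

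Among the lower hypoxia targets is a gene that acts in the extracellular matrix. Lox, which cross-links collagen, had 0 counts in the library labelled overexpression against 14.0 CPM, at least 78.3-fold lower with a floor of 3 counts in the library at 0. It was split by column kind, as was the other lower hypoxia target.

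Letters of the HIF response core ACGTG were sought in RefSeq promoters (build GRCm38.p6, 250 bases before to 50 after the most upstream listed start, both strands), which matched 7232 of the 9031 own-sequence genes by symbol. They stood in 26.2% of these promoters, in 20.3% of those of the 443 higher genes with a promoter and in 20.9% of the 259 lower ones. Of the glycolytic targets with a promoter 10 of 23 held the core (43.5%), and of the other hypoxia targets 10 of 20. The other form of the core, GCGTG, stood in 53.8% of own-sequence promoters, in 51.7% of the higher and 39.0% of the lower ones, in 10 of 23 glycolytic targets (43.5%, below that background) and in 15 of 20 other hypoxia targets. All RefSeq promoters held ACGTG in 19.6% and GCGTG in 32.5%. Ddit4 is shown because it was the 1 own-sequence gene of either list on the higher side whose 250 bases before the start hold ACGTG, given in capitals, from chr10:59951906-59952005, minus strand:
Ddit4: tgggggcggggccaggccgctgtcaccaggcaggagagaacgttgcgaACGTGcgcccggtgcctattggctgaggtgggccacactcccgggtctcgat
The match is a run of letters and not a shown binding site, and the window is too short to hold distant elements.

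The interferon program was lower in the library labelled overexpression across nearly the whole list. Interferons signal through a transcription factor complex that includes IRF9, binds the interferon-stimulated response element (ISRE) and switches on antiviral genes. Of 37 listed genes 31 were measured, 27 were lower and 0 higher, and the median log2 ratio was -2.60. Over the 24 own-sequence members 20 were lower, and of the 14 of these that were not split by column kind 10 were lower, against backgrounds of 3.86% and 3.01%. The list's summed level was 481 CPM in the library labelled overexpression and 1933 in conventional 3D culture, against 3644 in dynamic suspension, 380.5 in shControl and 216 in the library labelled knockdown. For 30 of the 31 genes the levels in conventional 3D and dynamic suspension culture both exceeded those of the other 3 libraries, so shControl, also wild type by label, sat on the low side. The 6 listed genes that were not measured lay below a mean of 1 CPM, and 4 of the 27 lower genes were measured only through their level in conventional 3D culture, being under 1 CPM in the library labelled overexpression.

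The promoters of this list often hold the ISRE letters, which are TTTC, any 2 bases and TTTC again, on either strand. They stood in 16 of 25 list promoters (64%), against 2.46% of all own-sequence measured genes, 2.94% of higher and 7.34% of lower ones. Of all 27025 RefSeq promoters 3.49% held them. The 4 own-sequence genes of the list with the lowest ratios among those with a match before the start are shown, each 100 bases long, with matches in capitals, and overlapping matches run together. Gbp3 lies at chr3:142559944-142560043, plus strand, Cxcl10 at chr5:92349040-92349139, minus strand, Isg15 at chr4:156200830-156200929, minus strand, and Gbp2 at chr3:142620559-142620658, plus strand.
Gbp3: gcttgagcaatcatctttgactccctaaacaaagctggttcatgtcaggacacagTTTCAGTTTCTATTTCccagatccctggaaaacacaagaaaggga
Cxcl10: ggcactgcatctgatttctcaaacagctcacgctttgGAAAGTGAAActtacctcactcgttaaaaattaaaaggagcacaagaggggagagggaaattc
Isg15: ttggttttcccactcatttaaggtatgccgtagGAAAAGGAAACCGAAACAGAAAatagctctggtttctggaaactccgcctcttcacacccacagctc
Gbp2: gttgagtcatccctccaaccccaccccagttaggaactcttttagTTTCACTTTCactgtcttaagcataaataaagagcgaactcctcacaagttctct
In Gbp3 and Gbp2, genes of guanylate-binding proteins that attack intracellular pathogens, the match starts 39 and 59 bases before the gene start.

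Members differed by role. Among the transcription factors, Irf7, the amplifier of type I interferon, was 0.83 CPM against 14.9 (17.8-fold lower, 10.6 to 32.8), with 11.8 in dynamic suspension, 0.46 in shControl and 0.79 in the library labelled knockdown. Irf9, the DNA-binding part of the complex, was 17.6 against 77.2 CPM, with 74.1, 9.77 and 4.79 in those libraries. Stat2, another part of the complex, was 21.4 against 42.5 CPM, just inside the threshold at -0.99. Conventional 3D and dynamic suspension culture were the high samples for all of these factors, and shControl was low.

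Sensors of viral RNA were likewise high in conventional 3D and dynamic suspension culture. Ddx58, which encodes RIG-I, was 54.8 against 257 CPM, with 276 in dynamic suspension, 26.8 in shControl and 12.5 in the library labelled knockdown. Ifih1, which encodes MDA5, was 9.59 against 36.9, and Dhx58, which encodes LGP2, a regulator of both, 3.69 against 29.7 (8.04-fold lower). Usp18, the protease that removes ISG15 and damps the receptor, was 2.02 against 33.6 CPM (16.6-fold lower, 11.8 to 24.0), with 81.9, 1.88 and 0.53 CPM in dynamic suspension, shControl and the library labelled knockdown. None of these 4 genes was split by column kind, and all have sequence of their own.

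Effectors spread more widely. Isg15, the ubiquitin-like tag, was 3.04 against 31.96 CPM (10.5-fold lower), Xaf1, a promoter of cell death, 2.68 against 58.9 (21.99-fold) and Oasl2, of the 2'-5' oligoadenylate synthetase family, 1 count or 0.06 CPM against 11.3, a ratio of 190 with an interval from 34.0 to 7529. Those 3 were split by column kind. At the mild end Ifit2, a blocker of viral translation, was 45.0 against 99.9 CPM. Rsad2, which encodes viperin, was 90.8 against 145 CPM and Bst2, which tethers virus particles, 103 against 148, neither of them beyond 2-fold. Rsad2 in the library labelled overexpression was above shControl (16.5 CPM) and the library labelled knockdown (9.52).

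**Figure D3:**
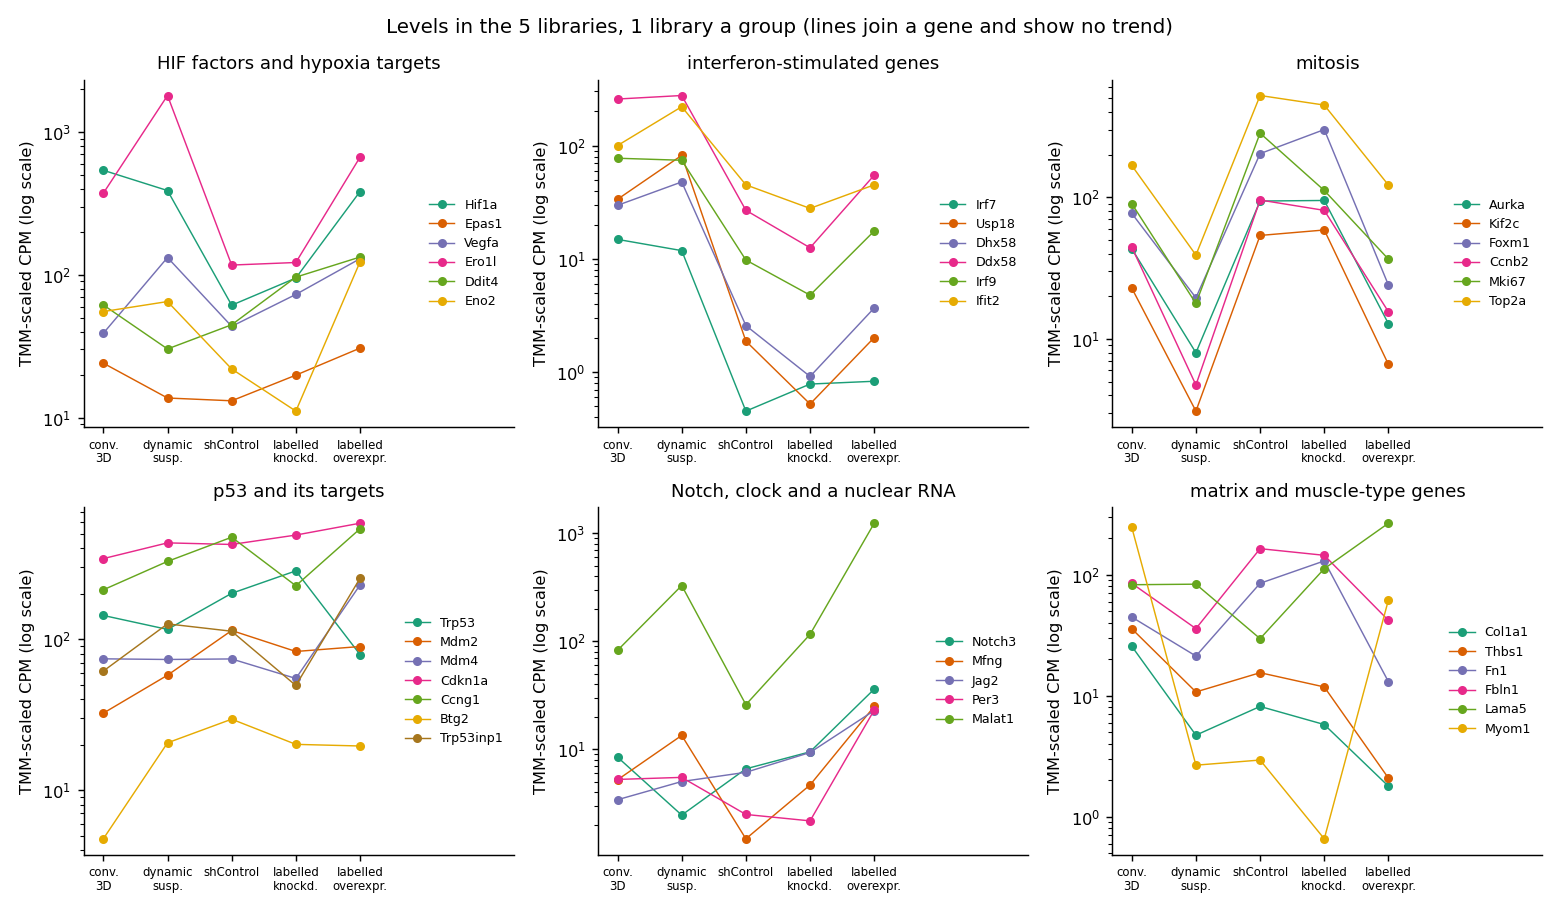
Scaled CPM (log scale) of 36 genes in the 5 libraries, grouped by role, 1 point a library; lines join a gene's points and carry no order. Interferon genes are high in conventional 3D and dynamic suspension culture, mitosis genes are lowest in dynamic suspension and next lowest in the library labelled overexpression, and Malat1 is at its top in the latter at 1240.03 CPM.

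Antigen presentation and inflammatory signalling leaned the same way. Of 13 measured genes of MHC class I presentation 5 were lower, 0 higher, and the median was -0.85. Over the 6 of own sequence 3 were lower. B2m, the light chain of class I molecules, was 287 CPM against 788 (2.75-fold lower, 2.67 to 2.83), with 895 in dynamic suspension, 410 in shControl and 160 in the library labelled knockdown. Psmb10, a subunit of the immunoproteasome, which cuts peptides for display, was 8.22 against 27.2, and its activator genes Psme1 and Psme2 (shared sequence) were 71.7 against 151 and 16.3 against 58.3. Under total-count scaling Psme1 was within 2-fold (-0.74). Of 17 measured chemokines, cytokines and NF-kappaB feedback genes 10 were lower and 0 higher, with a median of -1.28. The background is 10.8% lower of all measured genes. Without split genes 4 of 10 were lower and the median was -0.53. Over the 7 own-sequence members that were not split, 3 were lower, against a background of 3.01%. Of the 10 lower genes 2 were measured only through their level in conventional 3D culture. Csf1, the macrophage growth factor, was 21.9 against 119 CPM (5.45-fold lower, 4.91 to 6.07), the lowest and the highest of the series respectively. Ccl5, a chemokine that draws T cells, was 2.38 against 19.2, Relb, a subunit of NF-kappaB, 28.9 against 70.2 and Nfkbia, its inhibitor and target, 14.0 against 32.7.

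**Figure D4:**
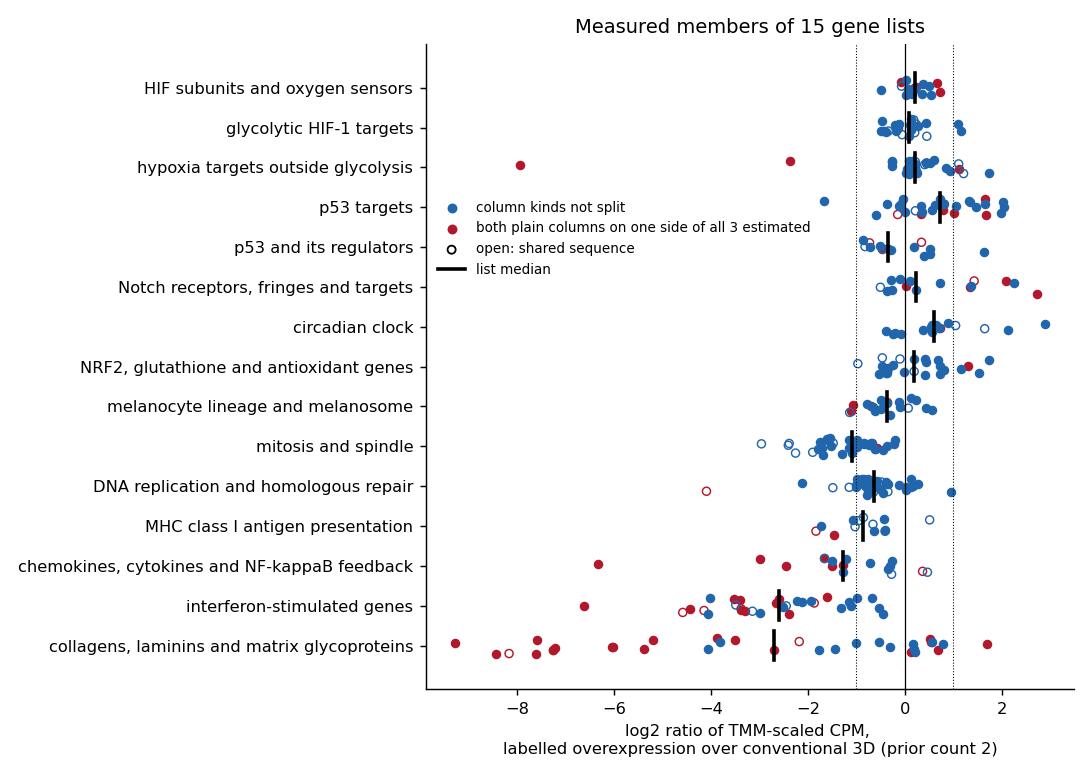
Log2 ratio of the library labelled overexpression over conventional 3D culture (x axis) for every measured member of 15 gene lists (rows). Red points are split by column kind, open points share sequence, bars are list medians and dotted lines mark 2-fold; medians run from -2.69 for matrix genes and -2.60 for interferon genes to 0.73 for p53 targets.

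Targets of p53, the pathway named in the series title, leaned to the higher side, while Trp53 RNA was below that of conventional 3D culture but within 2-fold. The p53 protein is held low by MDM2 and MDM4 and, once freed by DNA damage or other stress, switches on genes of arrest, repair and cell death, among them Mdm2, its own brake. Trp53 (chromosome 11, 69580359 to 69591873, plus strand) was at 79.0 CPM against 143, 1.82-fold lower (1.71 to 1.93), the lowest of the series, with 116 in dynamic suspension, 201 in shControl and 283 in the library labelled knockdown. Of 30 measured targets 11 were higher and 1 lower, with a median of 0.73. The 26 own-sequence members held all 12 of these, and of the 21 that were not split 8 were higher, against a background of 4.81%. In 21 and 22 of the 30 genes the library labelled knockdown and shControl were also above conventional 3D culture.

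Both brakes of p53 were higher. Mdm2 (chromosome 10, 117688875 to 117710758, minus strand) was 89.3 CPM against 32.3, 2.76-fold higher (2.58 to 2.96). Conventional 3D culture had the lowest Mdm2 of the 5 libraries, with 57.7 in dynamic suspension, 114 in shControl and 82.8 in the library labelled knockdown. Mdm4 was 228 against 74.0 CPM (3.08-fold, 2.95 to 3.23), and the other libraries held 73.3, 73.9 and 54.9 CPM, so its high level stood apart in the library labelled overexpression. It was the only member beyond 2-fold among 15 measured regulators of p53, whose median was -0.35.

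Targets of arrest showed 2 patterns. Cdkn1a, which encodes p21, was 586 against 341 CPM (log2 ratio 0.78, and 1.11 under total-count scaling), with 434, 424 and 489 in dynamic suspension, shControl and the library labelled knockdown, and stayed under the threshold. Trp53inp1, a stress protein that promotes p53 activity and autophagy, was 253 against 61.4 CPM (4.12-fold, 3.93 to 4.31), the top of the series. Ccng1, the cyclin G1 gene, was 538 against 212, with 327, 473 and 226 in the others. Btg2, an antiproliferative gene, was 19.6 against 4.75 CPM (4.12-fold, 3.49 to 4.87), yet dynamic suspension, shControl and the library labelled knockdown had 20.6, 29.5 and 20.1, so that conventional 3D culture was the low sample.

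Repair and death genes followed. Ercc5, of nucleotide excision repair, was 83.7 against 33.2 CPM and Polk, a polymerase that bypasses damage, 52.99 against 25.5, each highest in the library labelled overexpression. Bbc3, which encodes the killer PUMA, was 22.5 against 7.10 CPM, and the library labelled knockdown exceeded it at 49.7. Pidd1, which assembles a caspase-2 platform, was 17.5 against 5.54, with 36.2 in shControl and 43.4 in the library labelled knockdown. Tigar, which lowers glycolysis, was 73.4 against 94.4, and the 1 lower target was Perp, a desmosome gene near the detection limit at 0.60 against 2.01 CPM.

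Mitosis genes were lower throughout. All 35 listed genes had a log2 ratio below 0, 20 passed the threshold, and the median was -1.09. Of the 28 own-sequence members 13 were lower, all of them among the 27 not split by column kind, against backgrounds of 3.86% and 3.01%. The summed level was 694 CPM in the library labelled overexpression and 1485 in conventional 3D culture, between 352 in dynamic suspension and the 4178 and 3377 of shControl and the library labelled knockdown. In 33 of the 35 genes the library labelled overexpression lay above dynamic suspension and below both shControl and the library labelled knockdown. Dynamic suspension and shControl, at the low and the high end of the summed level, are both estimated columns and both wild type by label. The cause of this order was not tested.

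Kinases and regulators were among the lower genes. Aurka, the spindle pole kinase, was 12.8 against 43.3 CPM (3.39-fold lower, 2.94 to 3.91), with 7.99 in dynamic suspension, 94.0 in shControl and 94.9 in the library labelled knockdown. Foxm1, the transcription factor of the late cell cycle, was 24.0 against 77.0 (3.21-fold). Ccnb2, a mitotic cyclin, was 15.5 against 44.5 and Kif2c, a motor that corrects attachments at the kinetochore, 6.61 against 22.9. Several members of shared sequence were further down, with Kif20a at 5.18 against 40.6 CPM, Cdc20 at 6.79 against 36.1, Cdc25c at 2.86 against 15.2 and Plk1 at 11.9 against 57.0. Mki67, the proliferation marker, was 36.6 against 90.2 CPM (2.47-fold lower), while Cdk1 at 46.6 against 71.8 and Top2a at 122 against 168 were within 2-fold.

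The cell cycle homology region (CHR), the letters TTTGAA on either strand, marks many promoters of this phase. It stood in 20 of 29 list promoters (69.0%), in 10.97% of all own-sequence measured genes, in 11.1% of the higher and 23.2% of the lower ones. The letters CCAAT, bound by NF-Y, stood in 21 of 29 (72.4%), against 38.5% of all own-sequence genes and 33.6% of lower ones. All RefSeq promoters held TTTGAA in 18.2% and CCAAT in 38.0%. The 3 own-sequence genes of the list that were lower and had a CHR before the start are shown with it in capitals. They are Kif2c at chr4:117178823-117178922, Ccnb2 at chr9:70421669-70421768 and Mki67 at chr7:135716425-135716524, all on the minus strand.
Kif2c: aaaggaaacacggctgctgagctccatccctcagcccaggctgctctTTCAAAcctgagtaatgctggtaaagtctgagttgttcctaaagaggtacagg
Ccnb2: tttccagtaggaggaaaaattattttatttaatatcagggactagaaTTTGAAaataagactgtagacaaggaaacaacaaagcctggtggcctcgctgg
Mki67: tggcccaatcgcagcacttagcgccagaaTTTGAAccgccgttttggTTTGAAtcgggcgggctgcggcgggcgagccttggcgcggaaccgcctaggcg
Such matches describe the letters of the promoters, and no factor's binding was measured.

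**Figure D5:**
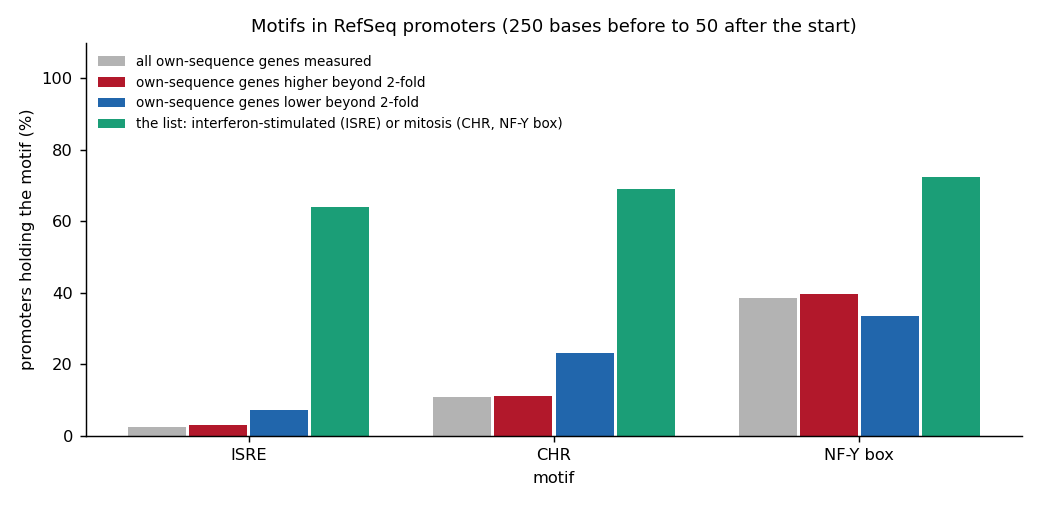
Percent of RefSeq promoters holding each motif (y axis) among all own-sequence measured genes, those higher, those lower, and the interferon-stimulated list (ISRE) or the mitosis list (CHR and NF-Y box). The ISRE stands in 2.46% of all and 64% of list promoters, and the CHR in 10.97% and 69.0%.

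DNA replication and repair genes were lower to a smaller degree. Of 36 measured genes 6 were lower, 0 higher, and the median was -0.64. Over the 28 of own sequence 3 were lower. The backgrounds are 10.8% lower of all measured genes and 3.86% of own-sequence genes. Brca1, of homologous recombination, was 109 CPM against 477 (4.36-fold lower, 4.15 to 4.57). The 4 libraries other than conventional 3D culture held 28.4 to 109 CPM of Brca1, so the high sample was conventional 3D culture. Mcm7, of the replicative helicase and of shared sequence, was 25.4 against 71.2, and Tk1, a thymidine kinase, 28.0 against 56.2. The 18 measured G1 cyclins, CDK inhibitors and pocket proteins had a median of 0.03 with 0 beyond 2-fold, and the 11 measured genes of the Myc network 0.02, also with 0.

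Several Notch genes were among the 12 highest ratios of own-sequence genes averaging 10 CPM or more. Notch receptors are cut after contact with a Jagged or Delta ligand on a neighbouring cell, and fringe enzymes tune which ligand they hear. Of 15 measured genes 6 were higher and 0 lower, with a median of 0.24, against 7.19% higher of all measured genes. The ligand gene Jag2 was 22.8 CPM against 3.40 (6.70-fold, 5.60 to 8.05), with 5.02, 6.10 and 9.32 in dynamic suspension, shControl and the library labelled knockdown. The receptor gene Notch3 was 36.02 against 8.44 (4.27-fold, 3.77 to 4.83), with 2.45, 6.58 and 9.45 CPM in the same order, and the fringe gene Mfng 24.9 against 5.21 (4.78-fold, 4.10 to 5.59), with 13.4, 1.48 and 4.66. All 3 were highest in the library labelled overexpression. They were under 10 CPM in conventional 3D culture, so they passed the minimum of that ranking only through the library labelled overexpression. Jag2 and Notch3 were also split by column kind, and without split genes the list's median was -0.00 with 2 of 10 higher.

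Of 16 measured clock genes 4 were higher and 0 lower, and over the 14 of own sequence 2 were higher. The backgrounds are 7.19% higher of all measured genes and 6.28% of own-sequence genes. Of the 4 higher genes 2, Per2 among them, were measured only through the library labelled overexpression, being under 1 CPM in conventional 3D culture. Per2 and Per3 encode period proteins, the negative arm of the circadian loop, and Dbp is a direct output of the clock. Per3 was 23.04 against 5.24 CPM (4.39-fold, 3.76 to 5.14), Per2 3.99 against 0.49 and Dbp, of shared sequence, 78.8 against 25.1. For each of these the library labelled overexpression was the highest of the 5, and the time of harvest is not given in the sources used here.

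A nuclear RNA and a few stress genes were higher. Malat1, a nuclear long non-coding RNA (chromosome 19, 5795690 to 5802672, minus strand), was at 1240.03 CPM against 82.3, 15.1-fold higher (14.6 to 15.6), with 328, 25.8 and 116 in dynamic suspension, shControl and the library labelled knockdown. Neat1, the scaffold of paraspeckles, was 55.2 against 27.4, and 0.95 on the log2 scale, under the threshold, with TMM factors from own-sequence genes. Of 24 genes of the NRF2 and glutathione system 4 were higher and 0 lower. All 4 were among the 19 of own sequence, against a background of 6.28%. Hmox1, which degrades heme, was 213 against 64.3 CPM (3.32-fold, 3.16 to 3.48), below the 471 of dynamic suspension, and Gclc, the first enzyme of glutathione synthesis, 61.8 against 21.4. Of 39 measured genes of the ATF4 program and tRNA synthetases 4 were higher and 1 lower, with a median of -0.01. Over the 33 of own sequence 2 were higher, a share near the 6.28% of own-sequence genes. Atf4 was 216 against 101 CPM, Ddit3, which encodes CHOP and shares sequence, 59.6 against 29.3 (log2 ratio 1.02, and 0.97 with those factors), and Gdf15, a secreted stress signal, 7.20 against 0.15, resting on 8 units in conventional 3D culture (47.9-fold, 23.6 to 114). The other 3 libraries held more Atf4 than both, at 270 in dynamic suspension, 483 in shControl and 881 in the library labelled knockdown.

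Matrix genes held the lowest ratio of own-sequence genes averaging 10 CPM or more, and their lower ratios lay mostly along the column kinds. Of 33 measured collagens, laminins and matrix glycoproteins 21 were lower, 1 was higher, and the median was -2.69. Among all measured genes 10.8% were lower and 7.19% higher. However, 21 of the 33 were split by column kind, and of the 12 others 5 were lower with a median of -0.42. Those 12 are all of own sequence, and the background of such genes is 3.01% lower. Over the 19 members that averaged 10 CPM or more, the median was 0.13 and 7 were lower, against 621 of 9345 among all genes at that level. Col3a1, a chain of fibrillar collagen III, had 3 counts or 0.18 CPM against 45.3, a ratio of 254 with an interval from 86.7 to 1230. The other libraries had, of Col3a1, 8.23 CPM in dynamic suspension, 8.70 in shControl and 0.07 in the library labelled knockdown. Col1a2, of collagen I, had 0 counts against 35.2 CPM, at least 197-fold lower. It passed the minimum of 10 CPM only through conventional 3D culture. Col1a1, its partner chain, was not split, at 1.79 against 25.6 CPM (14.3-fold lower, 10.0 to 21.4), with 4.72, 8.15 and 5.78 in dynamic suspension, shControl and the library labelled knockdown. Thbs1, an adhesive glycoprotein, was likewise not split, at 2.08 against 35.8 (17.2-fold, 12.3 to 24.7), with 10.7, 15.5 and 11.8 CPM. For Thbs1 and Col1a1 conventional 3D culture was the highest and the library labelled overexpression the lowest of the 5. Fn1, fibronectin, was 13.0 against 44.7 CPM, below shControl and the library labelled knockdown at 84.9 and 130.01. Lama5, a laminin chain of basement membranes, was the 1 higher member, at 266 against 82.6 CPM (3.22-fold), and was itself split by column kind.

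Markers of other cell types are given beside this group. The 8 fibroblast markers, which include Col1a1, Col1a2 and Col3a1, summed to 15.8 CPM in the library labelled overexpression and 129 in conventional 3D culture, against 35.6 to 38.4 in the other 3. In the library labelled knockdown most of the 35.6 CPM was Pdgfrb at 24.6, with Dcn, Lum and Thy1 at 0. Of the 8 markers, 6 were lower and 0 higher, against 10.8% lower of all measured genes. The 4 markers Col1a2, Dcn, Lum and Thy1 were at 0 counts in the library labelled overexpression and above 0 in conventional 3D culture. However, 6 of the 8 were split by column kind, and of the 2 others 1 was lower, Col1a1. Of the 6 lower markers 5 were measured only through their level in conventional 3D culture. Pdgfrb, a receptor of fibroblasts and pericytes, went the other way, at 12.6 against 7.48 CPM, and was split by column kind too. Of the 21 lower matrix genes 14 were measured only through their level in conventional 3D culture. The part of fibroblasts or similar cells in the matrix result was not tested. Immune markers summed to 8.45 and 15.8 CPM, mostly Cd68, which is also found outside immune cells, at 8.395 and 12.4 CPM, with 10 of 12 markers, Ptprc and Cd3e among them, at 0 in the library labelled overexpression. Endothelial markers summed to 4.88 and 10.7 CPM, all of it Vwf, with Pecam1 and Cdh5 at 0 in both, epithelial markers to 0.12 and 0.98, and erythroid markers to 0.06 and 0.

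Across own-sequence protein-coding genes 33 measured ones had 0 counts in the library labelled overexpression, against 0 such genes with a value of 0 in conventional 3D culture. All 33 were measured only through their level in conventional 3D culture, since a gene at 0 counts reaches the minimum mean only that way. Their levels there ran from 2.03 to 35.2 CPM, and the lower end is set by that minimum. Of these 33, 24 were also at 0 in the library labelled knockdown, whereas 32 were above 0 in both dynamic suspension and shControl. Bgn and Dcn, small proteoglycans of connective tissue, Acta2, smooth muscle actin, and Col5a2 were among them. Over all kinds of genes 137 measured ones were at 0 in the library labelled overexpression, with the same limit. The most abundant of them in conventional 3D culture were the processed pseudogenes Gm12671, Gm10359 and Gm15459 and the mitochondrial tRNA gene mt-Ts1, at 208 to 1009.6 CPM there and at most 0.07 CPM in the library labelled knockdown. Wdr74, a ribosome assembly factor, was at 0 and 0.26 CPM in the 2 plain columns and at 18.4 to 33.3 CPM in the 3 estimated ones.

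Melanocyte genes were abundant in both libraries. The 21 listed genes of the pigment lineage summed to 33920 CPM in the library labelled overexpression and 39598 in conventional 3D culture, with 19 measured, 3 lower and 0 higher. Over the 17 of own sequence 2 were lower. The backgrounds are 10.8% lower of all measured genes and 3.86% of own-sequence genes. Mitf, the master transcription factor of the lineage, was 158 against 344 CPM (2.17-fold lower, 2.09 to 2.26), and Trpm1, a channel gene under its control, 252 against 528. Both were split by column kind, with Mitf at 350.4 in dynamic suspension, 314 in shControl and 139 in the library labelled knockdown. Slc24a5, an ion exchanger of the melanosome of shared sequence, was 459 against 1011. Under total-count scaling all 3 were within 2-fold, at log2 ratios of -0.79, -0.74 and -0.81. Of 14 measured stem-like and drug efflux markers, the cell state that the series title names, 1 was higher, Lin28b, a block of let-7 maturation, at 6.13 against 2.44 CPM, 0 were lower, and the median was 0.10. The share higher was near that of all measured genes, 7.19%.

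Of 11 measured muscle-type genes 6 were lower and 0 higher, with a median of -1.16. Over the 10 of own sequence 5 were lower. The backgrounds are 10.8% lower of all measured genes and 3.86% of own-sequence genes. Of the 6 lower genes 2 were measured only through their level in conventional 3D culture. The muscle-type list summed to 935 CPM in the library labelled overexpression and 1247 in conventional 3D culture. Dynamic suspension had 347, shControl 1005 and the library labelled knockdown 1509, so the sum did not set this pair apart. A few genes of the list did. Myom1, a protein of the sarcomere's M line (chromosome 17, 71002633 to 71126856, plus strand), was 61.9 CPM in the library labelled overexpression and 247 in conventional 3D culture, against 2.66 in dynamic suspension, 2.94 in shControl and 0.66 in the library labelled knockdown. Eno3, the muscle form of enolase, had 173 and 385 CPM against 26.1, 20.9 and 40.8, and Smtnl1, a smoothelin-like protein of muscle, 6.19 and 25.4 against 1.27, 1.07 and 0.07. In all 3 the library labelled overexpression was second and 2.23-fold to 4.10-fold below conventional 3D culture. Under total-count scaling Eno3 was within 2-fold (-0.83). Acta2 and Tagln, smooth muscle genes, were at 0 counts against 10.1 and 2.35 CPM.

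By size, the 12 highest ratios among own-sequence genes averaging 10 CPM or more included Jag2, Mfng and Notch3 of the Notch group and Per3 of the clock, all described above. The others were Papln (a papilin-like matrix protein, 39.9 against 6.37 CPM), Col20a1 (a minor collagen, 20.2 against 3.38), Egr1 (an immediate early factor, 24.6 against 4.17, with 92.3 in dynamic suspension), Pnpla6 (a phospholipase, 48.0 against 8.32), Sept4 (a septin, 18.2 against 3.16), Dglucy (73.8 against 15.8), Fam193b (56.5 against 12.6) and Phc3 (a Polycomb subunit, 99.5 against 23.4). In 10 of the 12 the library labelled overexpression was the highest of the 5, Egr1 and Phc3 being the exceptions. Of the 12 highest, only Dglucy, Fam193b and Phc3 also reached 10 CPM in conventional 3D culture. The others passed the minimum only through the library labelled overexpression. Of the 12 lowest, 5 were matrix genes (Col1a2, Col3a1, Col12a1, Thbs1 and Col1a1), 5 were interferon-stimulated genes (Xaf1, Usp18, Isg15, Dhx58 and Irgm2), and Ccl5 and Wdr74 completed the set. Irgm2, an interferon-induced GTPase, was 4.41 against 28.6 CPM. Most of the 12 lowest were under 10 CPM in the library labelled overexpression and passed the minimum only through conventional 3D culture.

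Genes encoded in mitochondrial DNA were lower, 12 of 13 beyond 2-fold with a median of -1.62, against 10.8% lower of all measured genes. They took 5.35% of all counts in the library labelled overexpression and 12.7% of the values in conventional 3D culture, against 2.88 to 5.99% in the other 3 libraries, so conventional 3D culture stood apart. Among the 5 of own sequence 4 were lower and the median was -1.23, with mt-Nd5, of respiratory complex I, at 3634 against 8980 CPM. mt-Atp8, which overlaps its neighbour, was 4.11 against 2099 CPM, a gap along the column kinds, with 1267 and 1153 in the other estimated columns and 2.23 in the other plain one. Nuclear genes of the respiratory chain had a median of -0.34, with 4 of 34 higher and 2 lower. Cytosolic ribosomal protein genes, of which only 15 of 77 measured have sequence of their own, had 5 higher and 6 lower with a median of -0.00. The shares of all measured genes were 7.19% higher and 10.8% lower. The 6 lower ribosomal genes, such as Rps10 at 1.85 against 354 CPM, were all of shared sequence and split by column kind.

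Ratios varied little with position. Medians of own-sequence genes by chromosome ran from -0.02 on chromosome 7 to 0.18 on chromosome 13. By GC content of the longest transcript, the fifth of genes with the highest GC had 11.1% higher, against 3.93 to 5.98% in the other 4 classes of equal size, and 3.38% lower. The share higher was largest, 17.0%, in the fifth with the lowest mean level, where the share lower was also largest, at 10.0%. In the fifth with the highest mean level 1.61% were higher and 2.38% lower. Antisense genes had 53 of 146 higher and long intergenic RNAs 49 of 175, and for antisense genes, which overlap others, the strand setting of the counting is not given, so reads of a gene and its partner cannot be told apart.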

How the data were processed

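The members of this comparison and the gene lists were chosen with earlier results of these data known. RNA of 5 libraries was poly(A)-selected, made strand-specific and read as 150-base pairs with inserts near 300 bp, per the labels' protocols. Per the submitters' processing notes, cutadapt, HISAT2, StringTie, GRCm38.p6 and mm10 were used, but which program wrote the table is not stated there. The deposited values of the libraries labelled overexpression and knockdown are plain counts per Ensembl gene. Those deposited for the other 3 libraries behave as estimated counts by their pile-up at multiples of 4 (796 genes at 4 against 412 at 3 in conventional 3D culture). The columns of the table that were not used number 0.

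All 54100 identifiers matched GENCODE M21. TMM factors over 5 libraries came from edgeR 4.0.16 in R 4.3.3, DESeq2 size factors from DESeq2 1.42.0 in R, and all else from Python 3.11.15 with scipy 1.17.1. Log2 ratios of scaled CPM used a prior count of 2. The interval of a ratio is the exact conditional binomial 95% interval. A gene at 0 is bounded by a floor of 3 counts in that library (0.179 CPM in the library labelled overexpression, 0.056 CPM in conventional 3D culture), and a gene with 1 to 3 counts is given as the plain ratio with its interval. Intervals and floors cover counting error only. Uniqueness was judged on 1 in 8 of the 50-base stretches of GENCODE transcripts. The ratio and interval were tested on simulated data with 200 changed genes.

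Genes were named by rule: Hif1a, Epas1, Trp53, Mdm2 and Cdkn1a; the 12 highest and 12 lowest own-sequence protein-coding genes averaging 10 CPM or more; up to 4 highest and 4 lowest members beyond 2-fold of each list at 5 CPM or more, or else its most abundant member; and the 4 largest genes at 0 in the other library. Other members of a list were named after their values were seen, for their role. The alternatives tried were total-count, pairwise, own-sequence and DESeq2 scaling, other minimum levels, prior counts and a 3-fold threshold. Some members of the lists are counted but not reported singly here.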

Additional observations from a re-analysis of the deposited data

How the results depend on the processing

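The main comparison found 915 genes higher and 1372 lower. Scaling by total counts gave 1774 higher and 994 lower. A minimum of 10 CPM gave 348 and 621, no minimum 2300 and 2488, a 3-fold threshold 358 and 887, and protein-coding genes of own sequence alone 567 and 349. Genes not split by column kind, an alternative chosen after seeing the data, gave 595 and 411. TMM factors of the compared pair or of own-sequence genes, DESeq2 size factors, prior counts of 0.5 and 10, and intervals with the estimated counts divided by 4, also chosen after seeing the data, kept both counts within 1.5 times. The sign changes of medians that follow leave out the medians closest to 0 in the main comparison. Under total counts the medians of histone variants (0.12), lysosome (0.13), ribosome biogenesis (0.0077) and proteasome genes (0.12) and the ratio of Sqstm1 (0.031) changed sign. With TMM factors of own-sequence genes Ncl (-0.052), Aldh2 (-0.042) and the stem-like markers (-0.042) did, with those of the pair Ncl (-0.0059). Without a minimum the stem-like markers (-0.0041), galectins (0.078) and protein kinases C and D (-0.036) changed sign, at 10 CPM the matrix genes (0.13), and over own-sequence genes the histone variants (0.0084). Over genes not split, fatty acid synthesis (-0.10), Notch (-0.00058) and protein kinases C and D (-0.036) did. The cause was not tested. Of 46 list medians 1 stayed close to its value under every alternative, and 39 moved under total counts, where the median of all genes was 0.32. Those 39 include medians just below 0 that turned positive. They are the ATF4 program (0.32), heat shock proteins (0.26), iron genes (0.24) and cytosolic (0.33) and mitochondrial (0.24) ribosomal proteins. Of the 147 genes named by rule 125 kept direction and side of the threshold under each alternative of scaling and prior count. No paired analysis was possible because each group has 1 library, and for the same reason no replicate could be left out. Genes under the floor of 3 counts could not be compared at this depth.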

Other observations

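Other lists held few genes beyond 2-fold, where all measured genes had 7.19% higher and 10.8% lower. Tet2, which oxidises methylated cytosine with oxygen as a substrate, was at 33.6 CPM against 11.4 in conventional 3D culture (2.95-fold, 2.63 to 3.32), with 18.5 in dynamic suspension, 14.1 in shControl and 9.12 in the library labelled knockdown. It was the highest of the 5 libraries, and 1 other of the 20 measured oxygen-dependent demethylases was higher, Kdm6b, split by column kind. Slc25a37, the mitoferrin that carries iron into mitochondria, was 82.6 against 36.4 CPM, also the highest of the 5 and the only iron gene of 12 beyond 2-fold. Hspa1b, an inducible heat shock protein of shared sequence, was 49.95 against 10.7, while its near copy Hspa1a, also of shared sequence, was 0.30 against 2.09.

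Among secreted and membrane proteins, Lgals9, the galectin that binds TIM-3, was 49.8 against 142 CPM (2.85-fold lower, 2.65 to 3.06), with 181 in dynamic suspension, 28.8 in shControl and 24.4 in the library labelled knockdown, the same high samples as for interferon genes. Mmp15, a membrane matrix protease, was 21.02 against 6.99 CPM and the highest of the 5. Of 19 semaphorins and receptors 3 were higher, Sema3e, Sema4d and Sema6a, and 1 was lower, Sema3c at 0.60 against 4.32. Among all measured genes 7.19% were higher and 10.8% lower.

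Lipid synthesis genes had 2 lower of 17, namely Acaca, of shared sequence, and the desaturase Fads2, at 72.1 CPM against 178, the lowest of the 5, and within 2-fold under total-count scaling (-0.97). The share lower was near the 10.8% of all measured genes. Of 30 measured cholesterol genes only Fdps was beyond 2-fold, at 9.05 against 435 CPM, and it is of shared sequence and split by column kind. None of 31 constitutive proteasome, 28 lysosome or 20 ribosome biogenesis genes was beyond 2-fold.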
